A study of Mus musculus with 12 samples.

Results

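The MHC class II genes described here are the alpha and beta chain genes H2-Aa, H2-Ab1 and H2-Eb1, the invariant chain gene Cd74, the peptide editor genes H2-DMa and H2-DMb1, and the class II transactivator gene Ciita. They were chosen by gene symbol, 1 probe set each, and are 7 of the 24704 genes with a symbol on the arrays. The choice was made knowing that Cd74 and H2-Ab1 lay lower after Iso in the knockout cells, so every value of that comparison is given below as a description, with no test. All 7 lay above the median of their array on at least 3 of the 12 arrays and entered the fit.

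MHC class II molecules are cell surface proteins that show peptides from taken-up protein to CD4 T cells. An alpha and a beta chain pair in the endoplasmic reticulum around the invariant chain, which blocks the peptide groove and guides the complex to endosomes, where proteases cut the invariant chain and H2-DM exchanges its last fragment for a peptide. Macrophages, dendritic cells and B cells carry most of these molecules in a tissue such as the heart, and their genes share promoter boxes that the RFX, CREB and NF-Y factors occupy and through which Ciita acts.

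Gene expression was measured on Affymetrix arrays in ventricular myocytes taken by enzymatic Langendorff perfusion from the hearts of adult mice. Of the 6 mice, 3 lacked both CaMKIIδ and CaMKIIγ, forms of the calcium/calmodulin-dependent protein kinase II (CaMKII DKO), and 3 were corresponding wild type (WT) mice. Cells of each mouse were kept without treatment on 1 array and with 100 nM Iso for 24 h on another, which gives 4 groups of 3 arrays. The study asked whether expression after Iso differs between the genotypes, with the phosphorylation of histone H3 at serine 28 in view. The labels give no Cre, promoter or strain for the knockout, and the isolated myocytes can hold other cells of the heart.

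The values are log2 units of the arrays, in which a difference of 1 is a doubling. Levels are compared between groups for each gene, and not between genes. Camk2g lay at 3.57 to 4.20 on the 6 DKO arrays and at 4.78 to 5.80 on the 6 WT arrays, a difference of -1.42 (SE 0.14, limma adjusted p = 0.000398). Camk2d lay at 7.36 to 7.98 on the DKO arrays and 7.94 to 8.42 on the WT arrays, so the genotypes overlapped, and no source used here says whether its probes lie in the deleted part. Cardiomyocyte markers were above the filter for 10 of 10 genes. Untreated DKO array 3 stood apart, with a median correlation of 0.956 with the other arrays against 0.984 to 0.988 for the other 11, so values that moved by over 1.5 times without it are given both ways.

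H2-DMa, H2-DMb1, H2-Ab1, H2-Aa and H2-Eb1 lie in this order in the MHC on chromosome 17. The RefSeq promoter windows (GRCm38.p6) span 250 bases before to 50 after the gene start. They were used for 4 of the 7 genes, namely H2-Aa, H2-Eb1, H2-DMa and H2-DMb1. No window of H2-Ab1, Cd74 or Ciita was used, which does not show that these genes lack an entry. The 120 bases before the gene start of H2-Aa (chr17:34287824-34287943, minus strand), H2-Eb1 (chr17:34305747-34305866, plus strand) and H2-DMb1 (chr17:34153071-34153190, plus strand) are shown. These stretches were picked because they hold letters of some of the boxes through which the class is regulated. They were also picked because H2-Aa and H2-Eb1 were lower with Iso in each DKO mouse, and H2-DMb1 in 1 of 3. They are written 5′ to 3′ on the strand of the gene, with capitals for the X box (AG, any 2 bases, AC, any base, GAT), TGACG of the CREB site and CCAAT of the NF-Y site (ATTGG where it lies on the other strand).
H2-Aa: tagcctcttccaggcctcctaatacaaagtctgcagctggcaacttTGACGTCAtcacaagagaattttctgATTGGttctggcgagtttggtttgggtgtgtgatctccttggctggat
H2-Eb1: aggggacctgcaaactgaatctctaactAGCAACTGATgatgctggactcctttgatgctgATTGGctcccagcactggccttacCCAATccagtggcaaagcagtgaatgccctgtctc
H2-DMb1: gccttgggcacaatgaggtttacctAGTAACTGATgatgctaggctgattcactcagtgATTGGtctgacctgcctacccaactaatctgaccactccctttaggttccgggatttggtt

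In all 3 stretches a CCAAT box stood on the opposite strand, 18 bases after the TGACG site in H2-Aa, and 23 and 24 bases after the X box letters in H2-Eb1 and H2-DMb1. H2-Eb1 held a second CCAAT nearer to the gene start, on the strand of the gene. In H2-Aa the TGACG letters overlapped on both strands as TGACGTCA. H2-Aa held no match to the X box letters, and H2-Eb1 and H2-DMb1 held none to TGACG. Both strands were searched, and of 32851 windows of 300 bases 37.4% held CCAAT, 20.8% TGACG, 2.68% the X box letters, and 1.02% both the X box letters and CCAAT. A match of letters is a description and not a bound site. H2-Eb1 and H2-DMb1 share the X box and CCAAT letters at nearly the same spacing. Their Iso differences in DKO cells were -0.49 and 0.07 (below), and the level of H2-DMb1 is near the array median. Whether the boxes bear on these values was not tested.

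The chain genes had their lowest group means in Iso-treated DKO cells. H2-Ab1, the beta chain of I-A, was at 8.07, 8.11 and 8.33 in untreated WT cells and at 8.17, 8.11 and 8.45 with Iso. In DKO cells it was at 8.43, 8.34 and 9.16 without treatment and at 7.53, 7.31 and 8.03 with Iso. The Iso-treated DKO arrays lay below all others, and the 9.16 of untreated DKO array 3 was the highest of the 12. The Iso difference of H2-Ab1 in DKO cells was -1.02 (SE 0.23, 0.494-fold), and -0.76 without untreated DKO array 3.

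H2-Aa, the alpha chain that pairs with H2-Ab1, was at 6.72, 6.45 and 6.39 in untreated WT cells and at 6.54, 6.22 and 6.47 with Iso. DKO cells had H2-Aa at 6.37, 6.58 and 6.46, and with Iso at 6.17, 5.99 and 5.99. Again the 3 Iso-treated DKO arrays were the lowest of all. Their distance from the untreated DKO arrays was -0.42 (SE 0.13), and it was also -0.42 without untreated DKO array 3.

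H2-Eb1, the beta chain of I-E, was at 6.24, 6.02 and 6.06 in untreated WT cells and at 6.20, 6.14 and 6.41 with Iso. In DKO cells it was at 5.97, 5.90 and 6.43, and with Iso at 5.43, 5.27 and 6.11. Array 3 was the highest of the 3 in both DKO groups, so the groups overlapped although each mouse had its lower value with Iso. The difference was -0.49 (SE 0.21), and -0.33 without untreated DKO array 3 or -0.75 without Iso-treated DKO array 3. Its partner, the I-E alpha chain gene H2-Ea, stayed below the filter with group means of 2.75 to 3.05, where the array median is 3.31.

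Cd74, the invariant chain, is also a surface receptor for the cytokine MIF. It was at 7.87, 7.90 and 8.26 in untreated WT cells and at 8.23, 8.55 and 8.13 with Iso. In DKO cells it was at 8.01, 8.04 and 8.48 without treatment and at 7.52, 7.23 and 7.34 with Iso. All Iso-treated DKO arrays lay below the other 9, of which the lowest was at 7.87. The Iso difference in DKO cells was -0.81 (SE 0.17, 0.569-fold), and -0.66 without untreated DKO array 3.

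**Figure D1:**
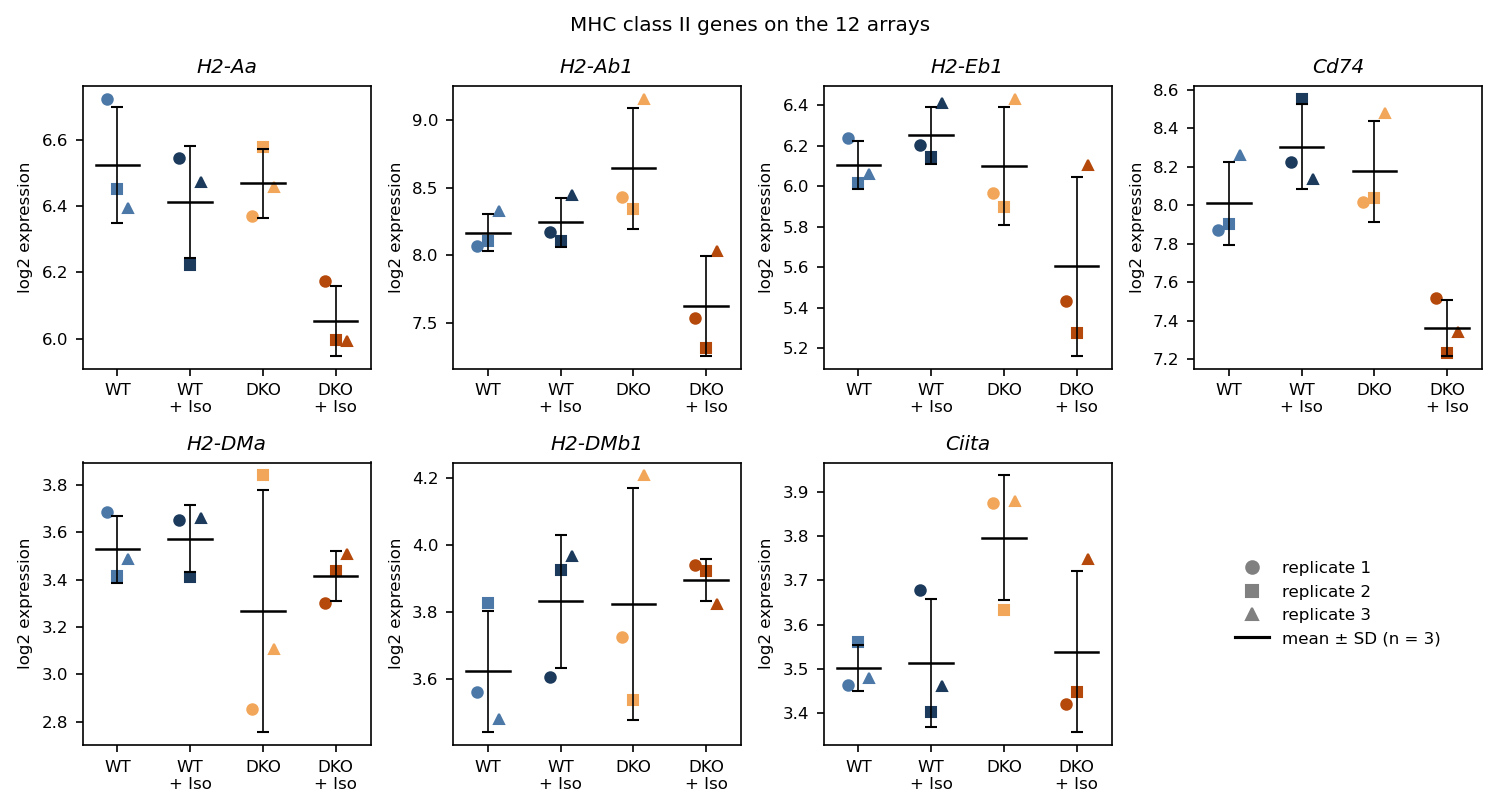
Log2 expression of the 7 MHC class II genes on the 12 arrays, with a panel and its own axis for each gene; points are arrays, shapes are replicate numbers, and lines are the mean ± SD of 3 arrays. The 3 arrays of Iso-treated DKO cells were the lowest for H2-Aa, H2-Ab1 and Cd74, whereas H2-DMa, H2-DMb1 and Ciita overlapped between untreated and Iso-treated DKO cells.

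The peptide editor genes did not share this pattern. H2-DMa, the alpha chain of the H2-DM exchange factor, was at 3.69, 3.41 and 3.49 in untreated WT cells and at 3.65, 3.41 and 3.66 with Iso. DKO cells had values of 2.86, 3.84 and 3.11, and with Iso at 3.30, 3.44 and 3.51. The untreated DKO arrays spread widely, with 1 of 3 above the array median, and they held both the lowest and the highest value of the 12. The Iso difference in DKO cells was 0.15 (SE 0.21), and 0.07 without untreated DKO array 3. It ran from -0.06 without untreated DKO array 1 to 0.43 without untreated DKO array 2.

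H2-DMb1, the beta chain of H2-DM, was at 3.56, 3.83 and 3.48 in untreated WT cells and at 3.60, 3.92 and 3.97 with Iso. Without treatment DKO cells were at 3.72, 3.54 and 4.21, and with Iso at 3.94, 3.92 and 3.83. The groups overlapped throughout, and the difference with Iso in DKO cells was 0.07 (SE 0.17), or 0.26 without untreated DKO array 3. Its near copy H2-DMb2, with which probes could share signal, spread from 2.94 to 5.16 over the 12 arrays, and the 5.16 was untreated DKO array 2. Its averaged genotype difference was 0.35 (SE 0.28, limma adjusted p = 0.728). H2-Oa and H2-Ob, which encode the inhibitor of H2-DM, and H2-Eb2 were below the filter.

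Ciita, the coactivator that switches on the class II genes, was at 3.46, 3.56 and 3.48 in untreated WT cells and at 3.68, 3.40 and 3.46 with Iso. In DKO cells it was at 3.88, 3.63 and 3.88, and with Iso at 3.42, 3.45 and 3.75. The untreated DKO arrays all lay above the untreated WT arrays, while Iso-treated and untreated DKO arrays overlapped. Each DKO mouse had the lower value with Iso, by a mean of -0.26 (SE 0.13), and -0.22 without untreated DKO array 3. These levels, like those of H2-DMa and H2-DMb1, are near the array median of 3.31, where an array resolves differences poorly.

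Ranked by group mean, Cd74 ran from Iso-treated WT (8.30 ± 0.22, SD, n = 3) through untreated DKO (8.18 ± 0.26) and untreated WT (8.01 ± 0.22) to Iso-treated DKO (7.36 ± 0.14). H2-Ab1 ran from untreated DKO (8.64 ± 0.45) through Iso-treated WT (8.24 ± 0.18) and untreated WT (8.17 ± 0.14) to Iso-treated DKO (7.63 ± 0.37). H2-Aa ran from untreated WT (6.52 ± 0.18) through untreated DKO (6.47 ± 0.10) and Iso-treated WT (6.41 ± 0.17) to Iso-treated DKO (6.05 ± 0.11). In these 3 genes only the last step was larger than the summed SDs of both groups. For H2-Eb1, H2-DMa, H2-DMb1 and Ciita no step between neighbours was, and the last step of H2-Eb1, to Iso-treated DKO cells (5.60 ± 0.44), was 0.49.

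Since each mouse gave an untreated and a treated array, the Iso difference can be read within mice. For H2-Ab1 DKO mice had -0.90, -1.03 and -1.13, and WT mice had 0.10, 0.00195 and 0.125. For Cd74 the values were -0.50, -0.81 and -1.14 with the knockout and 0.35, 0.65 and -0.125 in wild type. For both genes the DKO mice lay below the WT mice, in the comparison that chose the genes. How many of all genes do so was not counted, so nothing is read from it. H2-Ab1 was the 1 of the 7 genes with opposite signs in all mice of the genotypes, as were 4.77% of the genes tested.

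For H2-Eb1 DKO mice had Iso differences of -0.53, -0.62 and -0.33, against -0.04, 0.125 and 0.35 among WT mice. For H2-Aa it was -0.20, -0.58 and -0.47 against -0.18, -0.23 and 0.08, and DKO mouse 1 lay between WT mice. Of the 7 genes, 5 were lower with Iso in 3 of 3 DKO mice (all but H2-DMa and H2-DMb1), where 18.8% of the genes tested were. In WT mice 2 of 7, H2-Ab1 and H2-DMb1, were higher with Iso in 3 of 3 mice, against 14.8% of the genes tested. Because the DKO comparison chose the genes, nothing is read from the first of these counts.

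**Figure D2:**
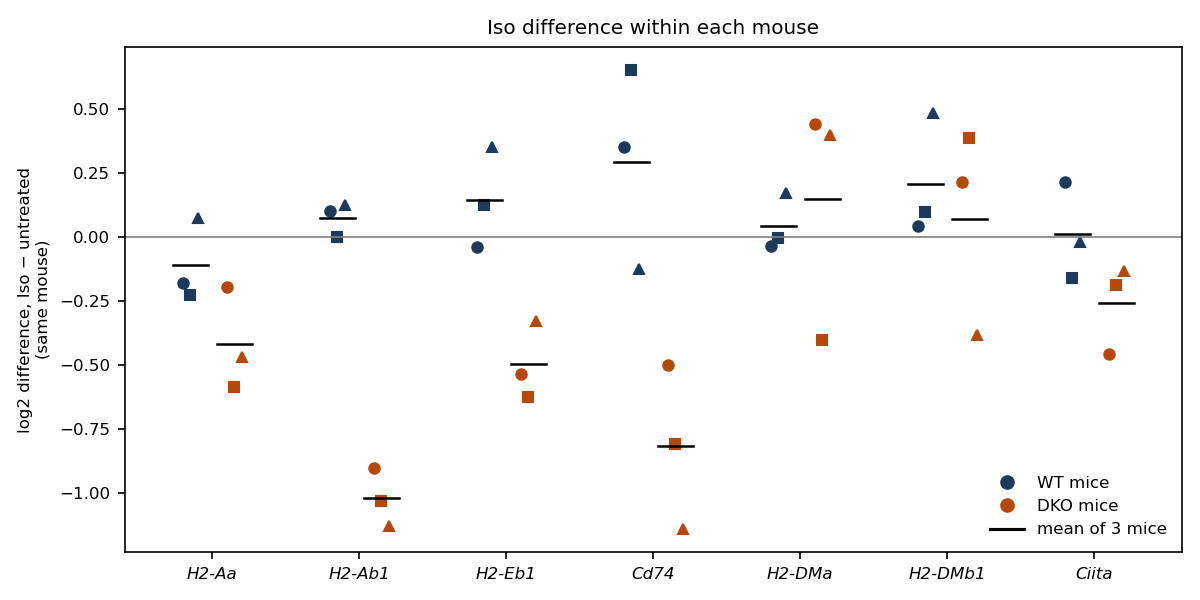
Log2 difference between the Iso-treated and the untreated array of the same mouse for the 7 genes; points are mice, shapes are replicate numbers within a genotype, and bars are means of 3 mice. All 3 DKO mice lay below 0 for H2-Aa, H2-Ab1, H2-Eb1, Cd74 and Ciita, and WT mice scattered around 0 with Cd74 between -0.125 and 0.65.

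In WT cells none of the 7 genes passed the test of the Iso difference. The differences ran from -0.11 (SE 0.13) for H2-Aa to 0.29 (SE 0.17) for Cd74, with 1 of 7 below 0, where 52.2% of the genes tested were. The median over the 7 was 0.08, beside -0.01 over all 13737 genes tested. With limma 0 of 7 passed at an adjusted p under 0.05, where 3 genes in all did (0.0218%), and 0 of 7 had an unadjusted p under 0.05, where 3.46% of genes were higher and 3.24% lower at that level. Cd74 had an adjusted p of 0.822 and a 95% interval of -0.08 to 0.66, and H2-Ab1 had an interval of -0.41 to 0.56 (adjusted p = 0.990). The intervals still allow a rise in WT cells of 0.18 for H2-Aa and of 0.59 for H2-Eb1, so the arrays do not show that Iso leaves these genes as they were.

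In DKO cells the median Iso difference over the 7 genes was -0.42, beside 0.01 over all genes, and 5 of 7 were below 0, as were 49.1% of all genes. The untreated and Iso-treated arrays did not overlap for 3 of 7, namely Cd74, H2-Aa and H2-Ab1, all lower with Iso, and 10.7% of the genes tested lay lower in this way. These values belong to the comparison by which the genes were chosen. The difference between the genotypes in the Iso effect (DKO minus WT) shares those arrays and was -1.11 (SE 0.24) for Cd74, -1.09 (SE 0.32) for H2-Ab1, -0.64 (SE 0.29) for H2-Eb1 and -0.31 (SE 0.19) for H2-Aa. It was -0.27 for Ciita, -0.14 for H2-DMb1 and 0.10 for H2-DMa. Without untreated DKO array 3 it was -0.96 for Cd74, -0.84 for H2-Ab1 and -0.47 for H2-Eb1, and 0.06 for H2-DMb1 and 0.02 for H2-DMa.

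The genotypes were also set against each other at each treatment, in comparisons that share their DKO arrays with the one above and are described only. Without Iso, H2-Ab1 lay 0.48 (SE 0.23) and Ciita 0.29 (SE 0.13) higher in DKO cells, with no overlap of the arrays, which makes 2 of 7 genes where 7.84% of the genes tested lay higher in this way. Cd74 differed by 0.17, H2-Aa by -0.05 and H2-Eb1 by -0.01. Without untreated DKO array 3 the H2-Ab1 difference was 0.22, that of Cd74 was 0.01 and that of H2-Eb1 was -0.17.

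With Iso, Cd74 was -0.94 (SE 0.17), H2-Eb1 -0.65 (SE 0.21), H2-Ab1 -0.62 (SE 0.23) and H2-Aa -0.36 (SE 0.13) from WT to DKO. The arrays of these 4 of 7 genes did not overlap between the genotypes, where 8.56% of the genes tested lay lower in this way. H2-DMa, H2-DMb1 and Ciita differed by -0.16, 0.06 and 0.03.

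The genotype difference averaged over untreated and treated arrays weighs the 6 DKO arrays equally, and it is independent of the Iso difference in DKO cells if all arrays vary alike, so it was tested. Untreated DKO array 3 varied more, with a residual spread of 0.374 against 0.141 to 0.276 on the others, and the independence is therefore only approximate. The difference, DKO minus WT, was -0.39 for Cd74 (SE 0.12, 95% interval -0.65 to -0.13, adjusted p = 0.221), -0.33 for H2-Eb1 (SE 0.15, adjusted p = 0.451) and -0.21 for H2-Aa (SE 0.09, adjusted p = 0.465). H2-DMa was -0.21, H2-Ab1 -0.07, H2-DMb1 0.13 and Ciita 0.16. With 1 array left out H2-DMa ran from -0.35 (without untreated DKO array 2) to -0.11 (without untreated DKO array 1). Likewise H2-Ab1 ran from -0.20 (without untreated DKO array 3) to 0.00769 (without Iso-treated DKO array 2), and H2-DMb1 from 0.04 (without untreated DKO array 3) to 0.20 (without untreated DKO array 2). With limma 0 of 7 passed at an adjusted p under 0.05, where 0.546% of the genes tested did, and 3 of 7 (Cd74, H2-Eb1 and H2-Aa) lay lower at an unadjusted p under 0.05, where 5.79% of the genes tested lay lower and 4.91% higher. For these 3 genes the lower average came from the treated arrays. Among untreated arrays DKO minus WT was 0.17 for Cd74, -0.01 for H2-Eb1 and -0.05 for H2-Aa. Among Iso-treated arrays it was -0.94, -0.65 and -0.36 in the same order. The 3 averages therefore do not describe a lower level in DKO cells at both treatments. The median averaged difference over the 7 was -0.21, beside -0.00258 over all genes, and -0.11 without untreated DKO array 1. With arrays weighted by quality Cd74 was at -0.45, but unequal weights tie the value to the Iso difference by which Cd74 was chosen, so it is given with no test.

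**Figure D3:**
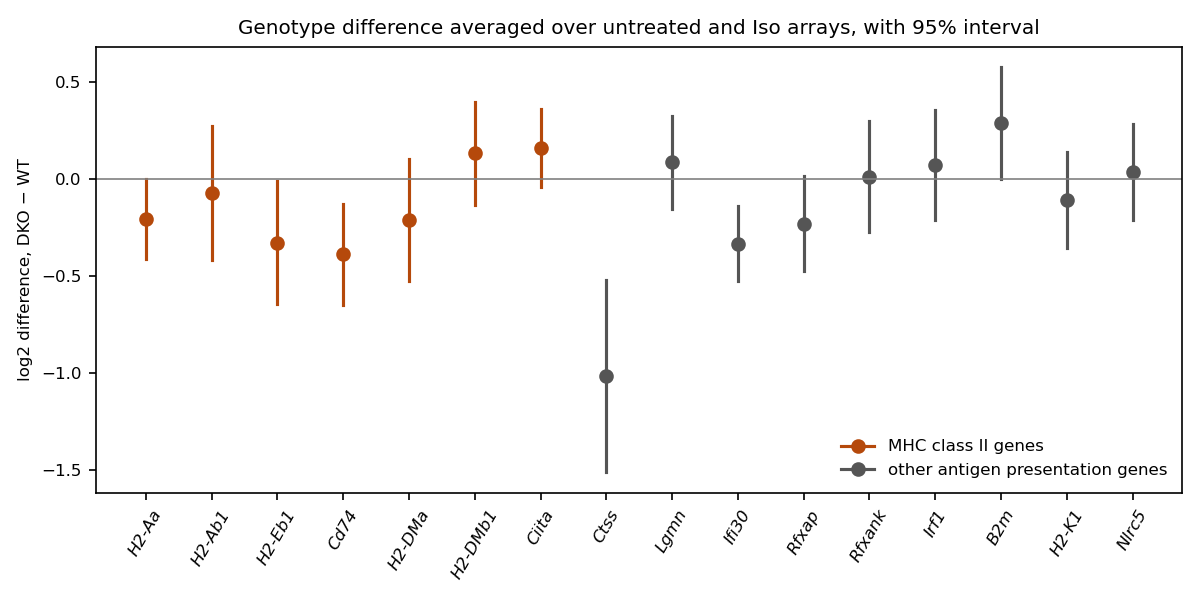
Log2 difference between DKO and WT cells averaged over untreated and Iso-treated arrays, for the 7 MHC class II genes and 9 other antigen presentation genes; points are estimates from 12 arrays and bars are 95% intervals that are not adjusted for the number of genes. The interval of Cd74 ran from -0.65 to -0.13 and that of Ctss from -1.51 to -0.52, and neither gene passed at an adjusted p under 0.05.

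The genes followed each other unequally over the 12 arrays, in correlations that also carry the group differences and the genes' shared arrays. H2-Ab1 and H2-Eb1 had r = 0.820 over 12 arrays, 0.888 within groups, and 0.828 without untreated DKO array 3. H2-Ab1 and Cd74 had r = 0.750 over all arrays and 0.460 within groups, and H2-Aa and H2-Ab1 had 0.538 and -0.121. The first pair thus had a high r also between replicates of a group. H2-DMa and H2-DMb1, which encode partners of 1 dimer, had r = -0.465, and Ciita had r = 0.623 with H2-Ab1 and 0.149 with Cd74.

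The 10 genes whose level over the 12 arrays was most like the mean of the 7 were Sugp1 (r = 0.948), Akt1 (0.947), Bet1l (0.936), Khk (0.929), Cyba (0.926), the pseudogene Gm5978 (0.926), Alad (0.925), Grcc10 (0.920), Ntsr2 (0.919) and Hbb-bt (0.916). Akt1 encodes a survival kinase, Cyba a subunit of the phagocyte NADPH oxidase, Khk ketohexokinase, Alad an enzyme of heme synthesis and Hbb-bt a beta globin. Over all genes the 99th percentile of r was 0.806, and the 10 kept r of 0.888 to 0.951 without untreated DKO array 3. Among the genes of antigen presentation, the likest were the immunoproteasome subunit gene Psmb10 (0.837), the class I heavy chain gene H2-K1 (0.835) and Rfxank (0.775), which encodes a subunit of the RFX complex. Within groups their r was 0.808, 0.609 and 0.684. Pdia3 (-0.831), Canx (-0.714) and Nlrc5 (-0.697), listed with class I, ran the opposite way. The mean of the 7 carries the Iso difference in DKO cells by which they were chosen, and r over all arrays carries it too.

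Among the genes that process the invariant chain and the antigens, 8 of 9 measured were above the filter, and 0 of 8 changed with Iso in WT cells, with Iso in DKO cells or between the genotypes, by limma's adjusted p. Over all genes 0.051% passed for Iso in DKO cells, and 9.46% were higher and 8.94% lower at an unadjusted p under 0.05. Unadjusted, 0 of 8 had a p under 0.05 with Iso in WT cells, 2 with Iso in DKO cells (1 higher and 1 lower), and 4 between the genotypes (1 higher and 3 lower in DKO cells). Ctss, cathepsin S, makes the last cuts in the invariant chain. It was at 6.89, 6.25 and 6.16 in untreated WT cells and 6.88, 6.18 and 5.76 with Iso, and at 5.23, 5.51 and 4.32 in untreated DKO cells and 5.49, 5.57 and 5.90 with Iso. Only the 5.90 of an Iso-treated DKO array reached into the WT range.

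The averaged genotype difference of Ctss was -1.02 (SE 0.23, adjusted p = 0.0852), and -0.84 without untreated DKO array 3 (adjusted p = 0.0484). Ctss thus passed or did not pass with that array, and it also passed without untreated DKO array 2 (-1.14, adjusted p = 0.0461) and with array weights. Its Iso difference in DKO cells was 0.64 (SE 0.32, adjusted p = 0.315), opposite in sign to that of the chain genes, and 0.29 without untreated DKO array 3.

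Ifi30, the lysosomal thiol reductase GILT that opens disulfide bonds of antigens, was at 3.70, 3.79 and 3.64 in untreated WT cells and 3.77, 4.04 and 3.60 with Iso. The DKO arrays were at 3.50, 3.52 and 3.51, and with Iso at 3.35, 3.42 and 3.26. The highest of the 6 DKO arrays was thus below the lowest of the 6 WT arrays, as in 0.677% of the genes tested. The averaged genotype difference was -0.33 (SE 0.09, adjusted p = 0.143), at levels near the array median, and with array weights it was -0.36 (adjusted p = 0.0266). Lgmn, an endosomal protease that takes part in cutting the invariant chain, differed by 0.09 (adjusted p = 0.853), and by 0.04 without untreated DKO array 3. Marchf1, the ubiquitin ligase that removes class II from the cell surface, was below the filter.

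**Figure D4:**
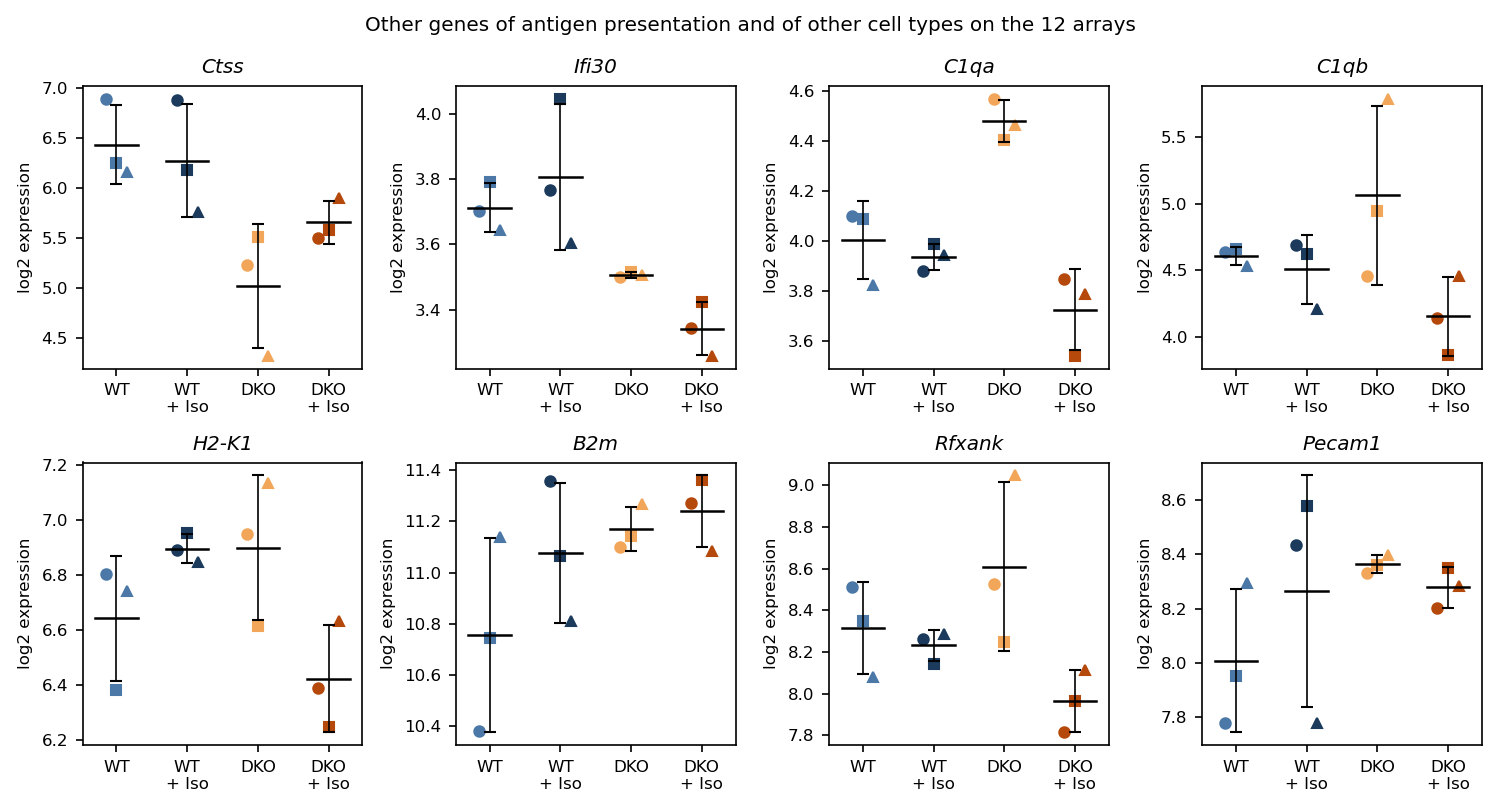
Log2 expression of 8 genes of antigen presentation and of other cell types on the 12 arrays, with a panel and its own axis for each gene; points are arrays, shapes are replicate numbers (circle 1, square 2, triangle 3), and lines are the mean ± SD of 3 arrays. Ifi30 was lower on all 6 DKO arrays than on all WT arrays, and C1qa was at 4.40 to 4.57 in untreated and 3.54 to 3.84 in Iso-treated DKO cells.

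Of the 8 genes for factors that occupy the class II promoter boxes, 6 were above the filter, and Rfx5 and Nfyb were not. By limma's adjusted p 0 of 6 changed with Iso in WT cells, with Iso in DKO cells or between the genotypes, and unadjusted 2, 1 and 1 had a p under 0.05. Over all genes tested 3.46% were higher and 3.24% lower at that level with Iso in WT cells. With Iso in DKO cells 9.46% were higher and 8.94% lower, and between the genotypes 4.91% and 5.79%. These shares also stand beside the unadjusted counts of the lists below. Rfxank, the RFX subunit, was at 8.53, 8.25 and 9.05 in untreated DKO cells and at 7.82, 7.96 and 8.11 with Iso, a difference of -0.64 (SE 0.19, adjusted p = 0.115), -0.82 without untreated DKO array 2 (adjusted p = 0.0352) and -0.43 without untreated DKO array 3 (adjusted p = 0.214). In WT cells it was at 8.51, 8.35 and 8.08, and with Iso at 8.26, 8.14 and 8.29. The 2 DKO groups did not overlap, where 10.7% of the genes tested lay lower with Iso in this way. All WT arrays lay above the median Iso-treated DKO array. Rfxap, another RFX subunit, differed by -0.23 between the genotypes (adjusted p = 0.502), and the NF-Y genes Nfya and Nfyc by 0.12 and 0.16 (adjusted p = 0.792 and 0.718), the latter 0.09 without untreated DKO array 3.

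Interferon gamma is the main known inducer of Ciita. Its own gene Ifng was below the filter, and by limma's adjusted p 0 of 7 other genes of its signal changed with Iso in WT cells, with Iso in DKO cells or between the genotypes. Unadjusted, 0, 0 and 2 of 7 had a p under 0.05. The receptor gene Ifngr1 differed by -0.28 between the genotypes (adjusted p = 0.462), and the target Irf1 by 0.07 (adjusted p = 0.902) and by -0.04 with Iso in DKO cells (adjusted p = 0.943). Without untreated DKO array 3 the Irf1 differences were -0.04 and 0.18.

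Of the costimulation genes, which give T cells the second signal beside class II, 4 of 5 were above the filter and 0 of 4 changed in the same 3 comparisons. Unadjusted, 0, 1 and 1 of 4 had a p under 0.05. Cd86 differed by -0.52 between the genotypes (SE 0.18, adjusted p = 0.289), and by -0.34 without untreated DKO array 3, where it was at 4.43 against 5.48 and 5.51 on the other untreated DKO arrays. With Iso in DKO cells Cd86 differed by 0.36 (adjusted p = 0.471), Cd80 by 0.10 (adjusted p = 0.870) and Cd40 by -0.16 (adjusted p = 0.769). Without that array these were 0.00187, -0.04 and -0.37.

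Class I molecules present peptides from inside the cell and are made by nearly all cells. All 17 class I genes measured were above the filter, and with limma 0 of 17 changed with Iso in WT cells, with Iso in DKO cells or between the genotypes, while 1, 6 and 3 had an unadjusted p under 0.05. Of the 6 with Iso in DKO cells 3 were higher and 3 lower, where 9.46% and 8.94% of the genes tested were. In DKO cells 10 of 17 were lower with Iso, where 49.1% of all genes were, with a median of -0.15, beside 0.01 over all genes. Without untreated DKO array 3 it was also 10 of 17, with a median of -0.05. Canx (group means 9.88 and 10.35) and Pdia3 (8.20 and 8.57) were higher with Iso in DKO cells without overlap of the arrays. Calr, H2-Q4 and Psmb10 were lower without overlap. Over all genes tested 10.8% lay higher and 10.7% lower in this way. H2-K1, a class I heavy chain, differed by -0.48 with Iso in DKO cells (SE 0.16, adjusted p = 0.156) and by 0.25 in WT cells (adjusted p = 0.865). Psmb10 differed by -0.54 with Iso in DKO cells (SE 0.16, adjusted p = 0.117), by -0.65 without untreated DKO array 2 (adjusted p = 0.0498) and by -0.38 without untreated DKO array 3 (adjusted p = 0.225). Psmb10, Canx, Pdia3, Calr and H2-Q4 were named after their values were seen.

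B2m, the light chain that all class I molecules share, differed by 0.07 with Iso in DKO cells (adjusted p = 0.884), and Tap1, a subunit of the peptide transporter, by -0.26 (adjusted p = 0.581). Without untreated DKO array 3 these were 0.12 and -0.07. Nlrc5, the class I counterpart of Ciita, differed by 0.38 (SE 0.16, adjusted p = 0.229). H2-D1, another heavy chain, differed by -0.24 (adjusted p = 0.440).

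Cells other than myocytes were read from their markers. In these bulk samples, fewer cells of a type and less RNA per cell cannot be told apart. Of 21 macrophage markers measured, 17 were above the filter, and Ptprc, Ccr2, Aif1 and Mpeg1 were not. The mean log2 level of the 17 was 4.39 to 4.54 in untreated WT cells, 4.29 to 4.46 with Iso, 4.33 to 4.56 in untreated DKO cells and 4.08 to 4.17 in Iso-treated DKO cells. The 3 arrays on which Cd74, H2-Aa and H2-Ab1 were lowest were thus also the 3 lowest for the mean of the macrophage markers. How many of all genes were lowest on these 3 arrays was not counted, and the part of these cells in the class II values was not tested. Cd74 and H2-Ab1 were chosen knowing that they lay lower there, so nothing is read from the match.

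With Iso in DKO cells 12 of 17 macrophage markers were lower, where 49.1% of all genes were, with a median of -0.20. Without untreated DKO array 3, 11 of 17 were lower, with a median of -0.17. On all arrays the other 5, Mrc1, Itgam, Cd163, Lyve1 and Timd4, were higher with Iso. By limma's adjusted p 0 of 17 changed, and 6 of 17, all lower, had an unadjusted p under 0.05, where 8.94% of the genes tested lay lower and 9.46% higher. C1qa, a chain of complement C1q made by macrophages, was at 4.57, 4.40 and 4.46 in untreated DKO cells and at 3.84, 3.54 and 3.79 with Iso. These groups did not overlap, where 10.7% of the genes tested lay lower in this way. The difference of C1qa was -0.75 (SE 0.13, adjusted p = 0.0607), and -0.76 without untreated DKO array 3 (adjusted p = 0.0456), so its call turned with that array. It also passed without untreated DKO array 2 (-0.79, adjusted p = 0.0291), with array weights (adjusted p = 0.00433) and with no filter on dim genes (adjusted p = 0.0471). In WT cells it was -0.07 (adjusted p = 0.981).

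Csf1r, the receptor for macrophage colony stimulating factor, was -0.36 with Iso in DKO cells (SE 0.13, adjusted p = 0.174) and Cd68 was -0.49 (SE 0.23, adjusted p = 0.281). Adgre1, a surface marker of tissue macrophages, was -0.06 (adjusted p = 0.914) and -0.20 without untreated DKO array 3, with group means of 3.22 to 3.53 near the array median. Between the genotypes 0 of 17 macrophage markers changed, and 5 of 17 lay lower in DKO cells at an unadjusted p under 0.05, where 5.79% of the genes tested did.

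Markers of the other class II bearing cells were mostly dim. Of 10 dendritic cell markers 4 were above the filter, and Itgax and Flt3 were not. The mean of the 4 was 3.33 to 3.55 in untreated and 3.44 to 3.65 in Iso-treated DKO cells, so it did not move down with the class II genes. Of 8 B cell markers measured only Cd79b was above the filter, and Cd79a and Ms4a1 were not. Of 5 T cell markers measured, Cd3e was the one above it.

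Endothelial markers, 10 of 10 above the filter, had means of 6.21 to 6.62 in untreated and 6.08 to 6.30 in Iso-treated DKO cells, with the highest value on untreated DKO array 3. Of these 10, 9 were lower with Iso in DKO cells (median -0.25, 0 changed, 1 at an unadjusted p under 0.05) and 7 without that array (median -0.08). Pecam1, an adhesion molecule of endothelial cells, differed by -0.09 with Iso in DKO cells (adjusted p = 0.853). Fibroblast markers, 5 of 6 above the filter, had overlapping means of 5.22 to 5.34 and 5.18 to 5.41.

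Most cardiomyocyte markers had higher values with Iso in DKO cells, 9 of 10 with a median of 0.21 (0.12 without untreated DKO array 3), and by limma's adjusted p 0 of 10 changed, with 4 higher and 1 lower at an unadjusted p under 0.05. The 1 that was lower, Ckm, the muscle creatine kinase, was named after its value was seen. It differed by -0.58 (SE 0.16, adjusted p = 0.109), and by -0.36 without untreated DKO array 3. Its arrays did not overlap, where 10.7% of the genes tested lay lower in this way. The means of the 10 were 11.89 to 12.06 in untreated and 12.11 to 12.32 in Iso-treated DKO cells, and 11.91 to 12.02 and 12.11 to 12.24 in WT cells, so the treated arrays lay above the untreated arrays in both genotypes. Myh6, the main heavy chain of the mouse heart's myosin, differed by 0.27 with Iso in DKO cells (SE 0.12, adjusted p = 0.267) and by 0.15 in WT cells (adjusted p = 0.909).

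**Figure D5:**
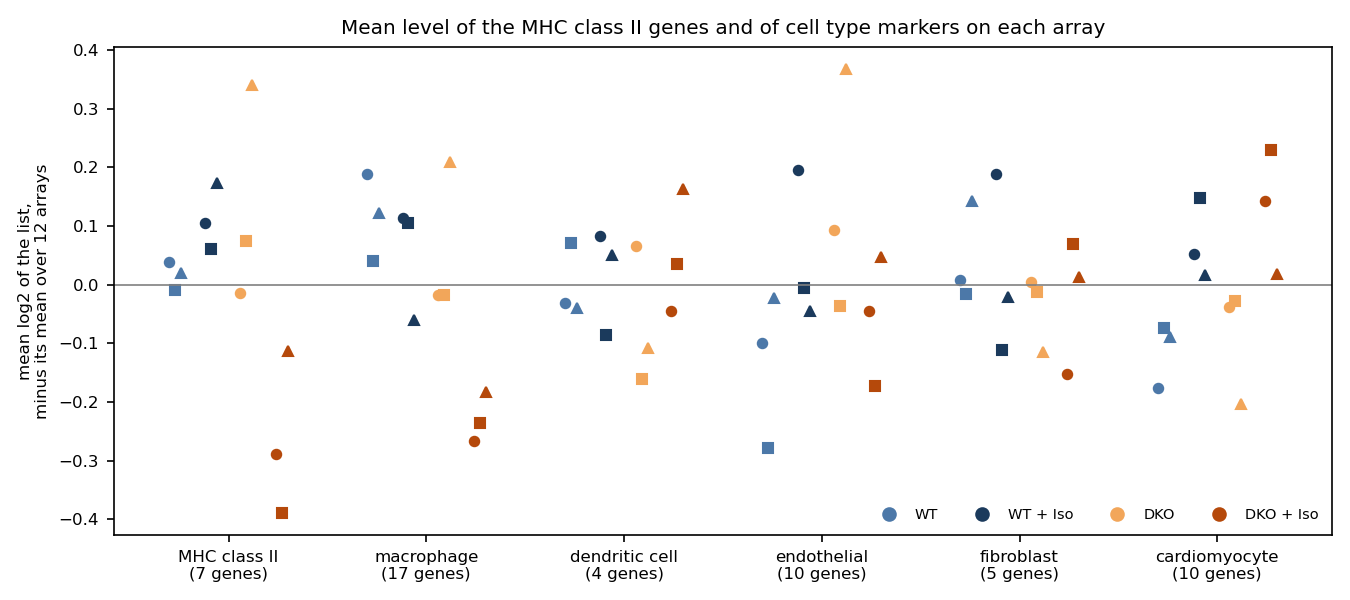
Mean log2 level of the 7 MHC class II genes and of markers of 5 cell types on each array, after subtracting each list's mean over the 12 arrays; points are arrays coloured by group, and shapes are replicate numbers (circle 1, square 2, triangle 3). The Iso-treated DKO arrays were the 3 lowest for the means of the class II genes and of the 17 macrophage markers. How many of all genes were lowest there was not counted, and the class II genes were chosen knowing of their fall. For the 4 dendritic cell markers, which lay near the array median, they were not the lowest.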

How the data were processed

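The deposited values were log2 expression, summarised by the authors with RMA, per the submitters' processing notes; the sources used here name neither its version nor the array type or annotation build. They were used as deposited. Of 25428 probe sets 24705 carried 1 symbol, giving 24704 genes, and 13737 above the median of their array on at least 3 of 12 arrays were tested. The number of arrays limits the precision.

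limma 3.58.1 in R 4.3.3 fitted 4 group means with moderated variances, with Benjamini-Hochberg adjustment over all 13737 genes, and a gene changed at an adjusted p under 0.05. The fit was tested on simulated data. The labels give 1 mouse number to 1 untreated and 1 treated array, which pairs them; their deviations from the group means correlated at -0.0623 to 0.130 across genes.

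Named were the 7 genes, a list of related genes and cell markers, and the 10 genes most like their mean by Pearson correlation. The members and lists were chosen with earlier results of these data known. Promoter windows came from RefSeq (GRCm38.p6). Alternatives covered the filter, the scaling, the variance model, array weights, the mouse as a block, only the arrays compared, and each array left out. Some listed genes are not reported here, and raw array files were not used here.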

Additional observations from a re-analysis of the deposited data

Results flagged for a closer look

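Among 33 genes examined, 3 moved with Iso one way in every DKO mouse and the other way in every WT mouse, as 4.77% of all genes tested did. For H2-Ab1 the Iso effect in DKO minus that in WT was -1.09, and the WT differences were small, from 0.00195 to 0.125. For H2-K1 it was -0.73, with -0.56, -0.37 and -0.50 in DKO mice and 0.09, 0.57 and 0.11 in WT mice. For Ctss it was 0.80, the other direction, with 0.27, 0.07 and 1.58 in DKO mice and -0.01, -0.08 and -0.39 in WT mice. The 1.58 rests on untreated DKO array 3, at 4.32. Without that array the Ctss Iso difference in DKO cells was 0.29, against 0.64 with it. In H2-Ab1 the comparison chose the gene, so the difference was not tested. The limma fit, which covers all genes, gave adjusted p = 0.392 for H2-K1 and 0.548 for Ctss, so neither passed.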

How the results depend on the processing

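As reported, no tested value of the 7 genes passed, and none of the other antigen presentation genes did. No such call could therefore be lost or turned in the 23 alternatives. Camk2g, which passed for genotype, kept its call in all 21 alternatives that gave this value. Calls gained by antigen presentation genes follow. With array weights the averaged genotype difference of Cd74 was -0.45, but unequal weights tie this to the comparison that chose the genes, so no test of it is given. With these weights 2 of the other antigen presentation genes (Ctss and Ifi30) passed for genotype, against 0 as reported. For Iso in DKO 2 such genes (Rfxank and Psmb10) passed with array weights, against 0. Leaving out 1 array gave 0 to 1 such genes for genotype and 0 to 2 for Iso in DKO, the 2 (the same genes) without untreated DKO array 2. The median over the 7 genes for DKO minus WT without Iso was 0.17 and ranged from 0.00816 (without untreated DKO array 3) to 0.25; the cause was not tested. With the mouse as a random block (consensus correlation 0.0333) the Cd74 genotype difference had an adjusted p of 0.245, and no call changed with the block. Array weights or a left-out DKO array weigh the DKO arrays unequally, so the p of Cd74 in those settings is not given. Levels near the array median of 3.31 limit what H2-DMa, H2-DMb1 and Ciita can show.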
